A study of Mus musculus with 2 samples.

Results

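The peaks described here are the 5hmC-enriched regions that lie inside very long genes in prospermatogonia of the mouse, which are the germ cells of the male before birth. A peak of the captured library belonged to the set when it was autosomal and its midpoint lay in a protein-coding gene with a span of 500 kb or more. The set holds 3574 of the 106034 autosomal peaks, in a list of 108395 peaks in all. The genes number 216, or 1.05% of the 20560 autosomal protein-coding genes used. Together they span 180.1 Mb once overlaps are counted once, which is 7.49% of the autosomal span and 18.3% of the protein-coding span. Their spans run from 501.8 to 2271 kb with a median of 734.6 kb, and 55 of them reach 1 Mb.

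The series holds 2 samples from wild-type animals, 1 library captured by 5hmC-Seal and 1 library of the same kind of DNA before capture. Both have replicate number 1. The DNA came from 30000 frozen germ cells pooled over several embryos at E17.5, and 50 ng of it was sheared for the capture. The captured library is used here through its peak list; the library before capture was not analysed here. There is no replicate, so no test across samples was possible, and every interval below covers counting error only. The list holds no expression values, so the labelled cell type was not checked here against marker genes. It holds no read counts either, so the depth is unknown.

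5hmC is formed when TET enzymes oxidise methylated cytosine, most often at CG dinucleotides. It can be an intermediate on the way to unmethylated cytosine or a lasting mark, and in many tissues it lies in the bodies of transcribed genes. Prospermatogonia at this stage are arrested in the cell cycle and are laying down the DNA methylation of the male germline. Very long genes consist mostly of introns. Many encode adhesion molecules, receptors and channels of neurons, some span common fragile sites, which break under replication stress, and many are replicated late.

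Starts of these genes were seldom inside a peak. Of 271 listed start sites in 169 of the genes, 11 had a peak over the 300 bp promoter window, which runs from 250 bp before to 50 bp after the start. That is 4.06% (exact 95% interval 2.04 to 7.15), close to the 4.15% of all 20085 listed windows of autosomal protein-coding genes. A peak within 1 kb of the start was found at 17 of the 271 sites, 6.27% (3.70 to 9.85), against 9.85% of all listed sites. Peaks near starts mostly lay at internal start sites. Of the 104 sites more than 50 kb into the gene 13 had a peak within 1 kb, and of the 136 sites within 1 kb of the upstream edge of the gene 2 did. The 3 windows with the strongest such peaks are given first and the windows of the 2 genes without any peak after them. CG dinucleotides, the usual place of 5hmC, are in capitals; CG reads the same on both strands. The sequences are those of RefSeq for GRCm38.p6, 5′ to 3′ on the strand of the gene.

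Dlgap1, chr17:70561497-70561796, plus strand: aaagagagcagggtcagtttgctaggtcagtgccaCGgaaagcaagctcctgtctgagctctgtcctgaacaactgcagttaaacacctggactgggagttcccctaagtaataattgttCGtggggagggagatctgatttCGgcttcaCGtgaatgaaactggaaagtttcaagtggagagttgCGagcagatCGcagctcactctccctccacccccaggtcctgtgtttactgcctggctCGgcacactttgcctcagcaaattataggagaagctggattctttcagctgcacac

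Sox6, chr7:115824661-115824960, minus strand: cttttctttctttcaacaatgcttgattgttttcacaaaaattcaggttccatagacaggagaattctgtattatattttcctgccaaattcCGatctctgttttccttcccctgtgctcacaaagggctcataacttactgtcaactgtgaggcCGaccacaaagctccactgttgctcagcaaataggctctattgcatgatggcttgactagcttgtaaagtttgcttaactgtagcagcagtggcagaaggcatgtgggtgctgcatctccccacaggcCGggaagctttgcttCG

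Kalrn, chr16:34513978-34514277, minus strand: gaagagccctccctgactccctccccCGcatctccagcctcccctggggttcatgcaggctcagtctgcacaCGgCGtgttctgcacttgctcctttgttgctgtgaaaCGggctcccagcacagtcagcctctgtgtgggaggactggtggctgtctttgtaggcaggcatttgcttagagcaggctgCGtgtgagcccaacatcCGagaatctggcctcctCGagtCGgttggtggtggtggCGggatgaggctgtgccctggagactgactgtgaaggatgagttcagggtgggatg

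Cadm2, chr16:67620859-67621158, minus strand: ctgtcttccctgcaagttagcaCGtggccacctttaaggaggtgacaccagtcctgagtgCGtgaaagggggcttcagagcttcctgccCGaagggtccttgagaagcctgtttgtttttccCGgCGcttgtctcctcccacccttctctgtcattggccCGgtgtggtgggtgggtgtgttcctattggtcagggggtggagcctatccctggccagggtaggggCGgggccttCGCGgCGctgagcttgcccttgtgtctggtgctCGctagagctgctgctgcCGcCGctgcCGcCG

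Lama2, chr10:27616893-27617192, minus strand: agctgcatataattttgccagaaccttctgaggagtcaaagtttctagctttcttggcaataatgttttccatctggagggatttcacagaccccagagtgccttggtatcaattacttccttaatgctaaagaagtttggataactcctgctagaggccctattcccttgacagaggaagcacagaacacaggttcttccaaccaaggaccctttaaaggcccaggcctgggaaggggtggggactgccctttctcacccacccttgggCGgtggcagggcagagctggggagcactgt

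The start of Dlgap1, a scaffold protein gene of the postsynaptic density, lies 592.7 kb into the gene, and its peak of fold 4.33 began 730 bp past the site. The Sox6 site lies 216.1 kb into this transcription factor gene, and a peak of fold 3.92 ran from position -10 to position 312 relative to it. At Kalrn, which encodes an exchange factor for small GTPases, a peak of fold 3.63 ran from position -1348 to position 70 relative to a site 59.2 kb into the gene and so covered the window. These 3 windows hold 7, 4 and 9 CG. The window of Cadm2, a cell adhesion gene, holds 15 and that of Lama2, which encodes a laminin chain of basement membranes, holds 1. The 11 windows of very long genes with a peak had a median of 7 CG, and the 260 without one had a median of 12. A count of 15 or more was reached in 1 of those 11 windows and in 114 of the 260. All listed windows showed the same order, with medians of 6 CG in 833 windows under a peak and 14 in 19252 others, and 48.1% of all windows held 15 or more.

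Peaks were sparse inside very long genes. The density was 19.8 peaks per Mb (exact Poisson 95% interval 19.2 to 20.5), against 66.2 (65.7 to 66.8) in shorter protein-coding genes, 34.7 (34.4 to 35) outside protein-coding genes and 44.1 over all autosomes. The ratio to shorter genes was 0.300 (0.290 to 0.310). Peaks covered 1.56% of the span of very long genes and 5.96% of that of shorter genes. Density fell with length from 5 kb upwards. It was 81.0 peaks per Mb (75.6 to 86.7) in genes under 5 kb, 95.6 in genes of 5 to 20 kb, 62.3 in genes of 100 to 200 kb and 44.4 in genes of 200 to 500 kb. It was then 24.7 (23.7 to 25.6) in genes of 500 kb to 1 Mb and 12.8 (12 to 13.7) in genes of 1 Mb or more. The genes nearest the limit of 500 kb were mixed. Just above it, Edil3 had 3 peaks (5.98 per Mb), Dock1 had 32 (63.6) and Samd12 had 3 (5.96). Just below it, Dnm3 had 9 (18.1), Lrrc7 had 3 (6.06) and Cacna1e had 8 (16.2).

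The gradient with length was carried by weak peaks. Strong peaks, those with a −log10 q of 5 or more by the authors' values, made up 482 of the 3574, or 13.5% (12.4 to 14.7), against 11.9% of all autosomal peaks and 4.19% of those in shorter protein-coding genes. Outside protein-coding genes strong peaks were 20.2% (19.8 to 20.5) of peaks. Their density in very long genes was 2.68 per Mb (2.44 to 2.93), against 2.77 (2.66 to 2.89) in shorter genes. The ratio was 0.966 (0.873 to 1.07). Over the 8 length classes the density of strong peaks stayed between 2.43 per Mb, in genes of 1 Mb or more, and 3.20 per Mb, in genes under 5 kb. Peaks under that threshold stood at 77.8 per Mb in genes under 5 kb and fell from 93.2 per Mb in genes of 5 to 20 kb to 10.4 in genes of 1 Mb or more, a ratio of 0.111 (0.103 to 0.120). For strong peaks the same ratio was 0.997 (0.806 to 1.23). Outside protein-coding genes strong peaks stood at 7.0 per Mb, so genes of every length class lay below that level. The split into peaks below and above the threshold was made after the values were seen.

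**Figure D1:**
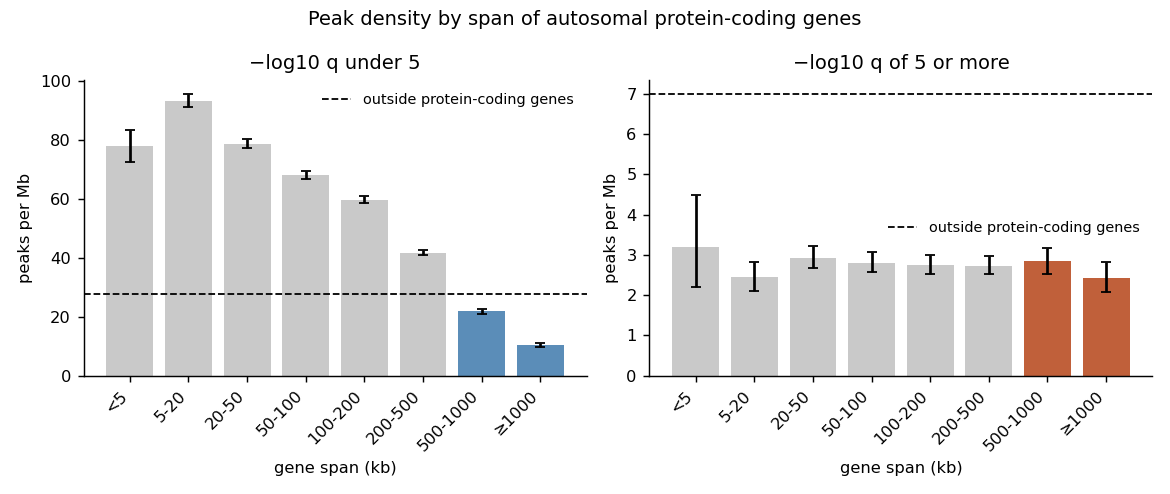
Peaks per Mb (vertical axes, both from 0) in autosomal protein-coding genes by span in kb, for weak peaks on the left and strong peaks on the right; bars are densities over all genes of a class, whiskers exact Poisson 95% intervals, coloured bars the very long genes and the dashed line the level outside protein-coding genes. Weak peaks fall from 93.2 to 10.4 per Mb between genes of 5 to 20 kb and genes of 1 Mb or more, while strong peaks stay between 2.43 and 3.20 per Mb.

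The surroundings of these genes were also poor in peaks, but less so. Sequence within 250 kb of either end that lies in no protein-coding gene had 28.1 peaks per Mb (26.9 to 29.3), so the inside of the genes was at 0.707 (0.670 to 0.745) of its own flanks. Genes of 200 to 500 kb showed the opposite order, with 44.4 per Mb inside and 40.5 in the flanks, a ratio of 1.10 (1.07 to 1.13). Of the 216 very long genes 51 had a higher density inside than in their flanks and 165 a lower one; among genes of 200 to 500 kb 46.2% had a higher one. Density inside and in the flanks went together over the 216 genes (Spearman correlation 0.621), as a description of neighbouring sequence in 1 library. Strong peaks were more unequal, at 2.68 per Mb inside and 6.45 in the flanks, a ratio of 0.415 (0.366 to 0.470). They made up 13.5% of peaks inside and 23.0% (21.3 to 24.8) of peaks in the flanks. On the X chromosome, outside the set, the 11 genes of 500 kb or more had 30 peaks, 2.87 per Mb (1.93 to 4.09), below the 7.23 (6.37 to 8.18) of shorter X genes.

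Single genes differed widely around this low level. At least 1 peak was present in 214 of the 216 genes, 99.1%, against 63.3% of all autosomal protein-coding genes and 96.8% of those of 200 to 500 kb. The median gene had 11 peaks and 13.3 peaks per Mb, with quartiles of 6.54 and 29.5 and a highest value of 117.2. The autosomal average of 44.1 was exceeded by 32 genes, 14.8%, against 39.1% of genes of 200 to 500 kb. The 22 densest genes held 32.6% of gene and peak pairs on 8.08% of the summed span, and the 108 sparsest held 19.9% on 56.2%. These counts count a peak for each gene that holds it, since 5 genes overlap another member.

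The densest gene was Wwox on chr8:114439635-115352712, an oxidoreductase gene at a common fragile site, with 107 peaks or 117.2 per Mb (96.0 to 141.6). St6galnac3, which encodes a sialyltransferase, had 58 peaks (110.1 per Mb), and Camta1, the gene of a calmodulin-binding transcription activator, had 87 (108.4). Smyd3, a gene of a SET-domain methyltransferase, followed with 61 (107.8). The kinase gene Mast4 had 58 peaks (96.2 per Mb). The densities of these 5 genes lie above the 95.6 per Mb of genes of 5 to 20 kb, but among them only the interval of Wwox excludes that level. Next came Nav2, the gene of a cytoskeletal protein of growing neurites, with 61 (93.7), and the homeobox gene Zfhx3 with 62 (90.9). The forkhead gene Foxp1 had 54 (90.4), the GTPase-activating protein gene Arhgap26 68 (87.8) and Atrnl1 43 (82.3). By number of peaks, the leading genes were Wwox, Camta1, Arhgap26, Auts2 with 67 and, tied at 65, the cadherin gene Cdh13 and Sox5. Auts2 and Cdh13 were the genes over 1 Mb among them, at 60.6 and 54.9 per Mb; with Tenm3 (47.0) they were the 3 genes of that size above the autosomal average.

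Cadm2 on chr16:66655416-67620917 (965.5 kb) and Lama2 on chr10:26981285-27617191 (635.9 kb) had no peak, which allows up to 3.82 and 5.80 peaks per Mb by the Poisson interval. Single peaks were found in Csmd3, whose product has complement-control domains, in the glutamate receptor gene Grm7, the protocadherin gene Pcdh9, the netrin receptor gene Unc5d and the forkhead gene Foxp2. The phosphatase receptor gene Ptprk and the potassium channel gene Kcnd2 also had 1 each, and the catenin gene Ctnna2 had 2. In these 8 genes densities ran from 0.825 in Csmd3 to 1.94 in Kcnd2. The single peaks of Grm7, with fold 8.78, and of Csmd3 were strong. The flanks of these genes were not empty. The 2 flanks together held 8 peaks at Cadm2, 15 at Lama2, 7 at Csmd3 and 12 at Foxp2.

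**Figure D2:**
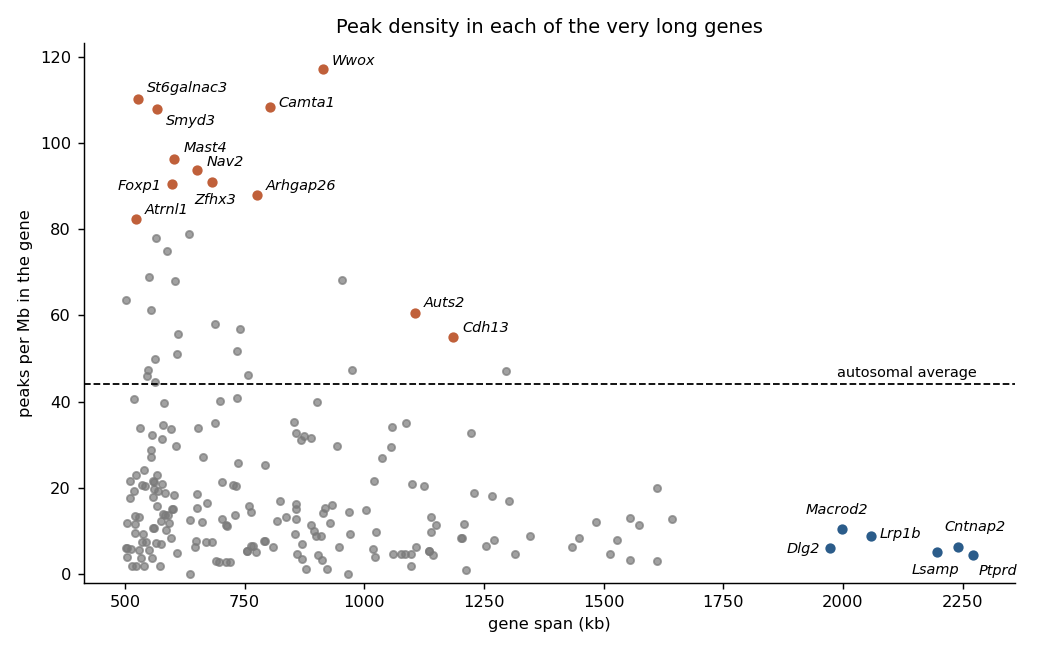
Peaks per Mb in the gene (vertical axis) against gene span in kb (horizontal axis) for each of the 216 very long genes; orange points are the 10 densest genes with Auts2 and Cdh13, blue points the 6 longest, and the dashed line the autosomal average of 44.1. Points above the line lie mostly under 1 Mb, and the 6 longest genes lie between 4.40 and 10.5 per Mb.

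The longest genes had few peaks. Ptprd, a phosphatase receptor gene of synapses and the longest of all at 2271 kb on chr4:75941237-78211742, had 10 peaks or 4.40 per Mb (2.11 to 8.10). Cntnap2, a neurexin-family gene, had 14 peaks over 2241 kb (6.25 per Mb) and the adhesion gene Lsamp 11 over 2197 kb (5.01). Lrp1b, a gene of the LDL receptor family, had 18 (8.75 per Mb) and the synaptic scaffold gene Dlg2 12 (6.08). Macrod2, which encodes an enzyme that removes ADP-ribose, had 21 peaks (10.5 per Mb) and Csmd1 also 21 (12.8). The neurexin gene Nrxn3 had 5 (3.10 per Mb) and the catenin gene Ctnna3 18 (11.4). Fhit, a nucleotide hydrolase gene at a fragile site, stood highest of the 10 longest with 32 peaks or 19.9 per Mb (13.6 to 28.0). The intervals of Ptprd, Cntnap2, Lsamp, Lrp1b and Dlg2 overlap, so their order is within counting error. Over all 216 genes, span and density were weakly related (Spearman correlation -0.224), a description over genes of 1 library.

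Paralogues could differ widely. The pairs that follow were chosen after the values were seen, because they differ. Foxp1 had 90.4 peaks per Mb and Foxp2, its close relative in the forkhead family, 1.85, a ratio of 48.9 with an interval of 8.41 to 1965 because Foxp2 had 1 peak. Nav2 and Nav3 had 93.7 and 5.17 per Mb, a ratio of 18.1 (6.73 to 68.7). The SoxD genes Sox5 and Sox6, which encode related transcription factors, had 68.1 and 19.3, a ratio of 3.53 (1.85 to 7.42). The scaffold genes Magi1 and Magi2 had 50.9 and 12.1, a ratio of 4.20 (2.28 to 7.98). Among teneurins, adhesion proteins of the synapse, Tenm3 was at 47.0 and Tenm2 at 18.7, a ratio of 2.52 (1.53 to 4.26). The axon guidance receptor genes Robo1 and Robo2 were at 21.6 and 3.21, a ratio of 6.71 (2.48 to 22.7). Spans also differ within pairs, from 608.5 kb in Magi1 to 1485 kb in Magi2. Strong peaks were few in these genes. They numbered 0 in Foxp1 and in Foxp2, 2 in Nav2 and 1 in Nav3, 4 in Sox5 and 1 in Sox6, and 3 in Tenm3 and 1 in Tenm2. Robo1 and Robo2 had 1 each, and Magi1 had 0 against 6 in Magi2.

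By function, the median density over genes was lowest in synaptic adhesion and highest in transcription and chromatin factors among the 9 lists. The lists were drawn up with earlier results of these data known. Median spans were 967 kb in synaptic adhesion, 704.7 kb in ion channels and neurotransmitter receptors and 682.3 kb in transcription and chromatin factors. Median density was 15.3 per Mb in genes of 500 kb to 1 Mb and 8.7 in genes of 1 Mb or more. The part of span in the differences between lists was not tested. Over summed span the lowest list was ion channels and neurotransmitter receptors, at 11.6 peaks per Mb (9.75 to 13.6), with synaptic adhesion at 12.7 (11.5 to 14) and overlapping intervals. Counts above the autosomal average in each list stand against 14.8% of all very long genes. Of 30 very long genes of synaptic adhesion 4 were above the autosomal average, a share near that background, and 9 were above the median of all members, with a list median of 6.38 peaks per Mb against 13.3 over all 216. The densest were Ptprg (58.1), a phosphatase receptor gene, and Tenm4 (56.8), and the sparsest were Cadm2 (0) and Ptprk (1.91). The neurexin gene Nrxn3 was at 3.10 and the neuroligin gene Nlgn1, whose product binds neurexins across the synapse, at 3.29. Ion channels and neurotransmitter receptors had a median of 9.26, with 1 of 16 above the average. The calcium channel gene Cacna1c (55.7) and the ryanodine receptor gene Ryr2 (27.1) led, and Kcnd2 (1.94) and Grm7 (1.09) were lowest. Axon guidance genes had a median of 9.28 over 9 genes. Nav2 (93.7) and the ligand gene Slit3 (74.9) were above the average, and Robo2 (3.21) and Unc5d (1.75) were lowest.

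The 17 scaffold and synapse genes had a median of 13.2, from Magi1 (50.9) and Dlgap2 (46.2) down to the sarcoglycan gene Sgcz (4.37) and Csmd3 (0.825). The 8 cadherin and catenin genes had a median of 11.6 with Cdh13 alone above the average. Pcdh15 (12.9), a protocadherin gene of the inner ear, came next, and Ctnna2 (1.82) and Pcdh9 (1.14) were lowest. RNA-binding proteins were 4, with Rbms3 at 34.1, Celf2 at 15.2, Rbfox1 at 7.86 and Khdrbs2 at 3.75. Common fragile site genes, some of which stand in other lists too, had a median of 14.4 over 21 genes. Wwox (117.2) and the recombination gene Rad51b (69.0) led, and Lsamp (5.01) and Dpyd (3.45), which encodes an enzyme of pyrimidine breakdown, were lowest.

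Transcription and chromatin factors had a median of 20.3 over 15 genes, with 6 above the autosomal average and 12 above the median of all members. Smyd3 (107.8) and Zfhx3 (90.9) led, and Erbb4 (4.64) and Foxp2 (1.85) were lowest; Erbb4 encodes a receptor kinase and stands in this list and among the signalling enzymes. The 15 genes of signalling enzymes had a median of 18.9, with 3 above the average. Camta1 (108.4) and Arhgap26 (87.8) led it, although the product of Camta1 is a transcription activator, so its place here adds to the counts of this list and not to those of transcription factors. Erbb4 (4.64) and the phospholipase gene Plcb1 (2.90) were lowest. The 91 genes in no list had a median of 13.8, with 11 above the average. Densities spread more widely within each list than the medians differ between lists; the narrowest list, RNA-binding proteins, ran from 3.75 to 34.1.

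**Figure D3:**
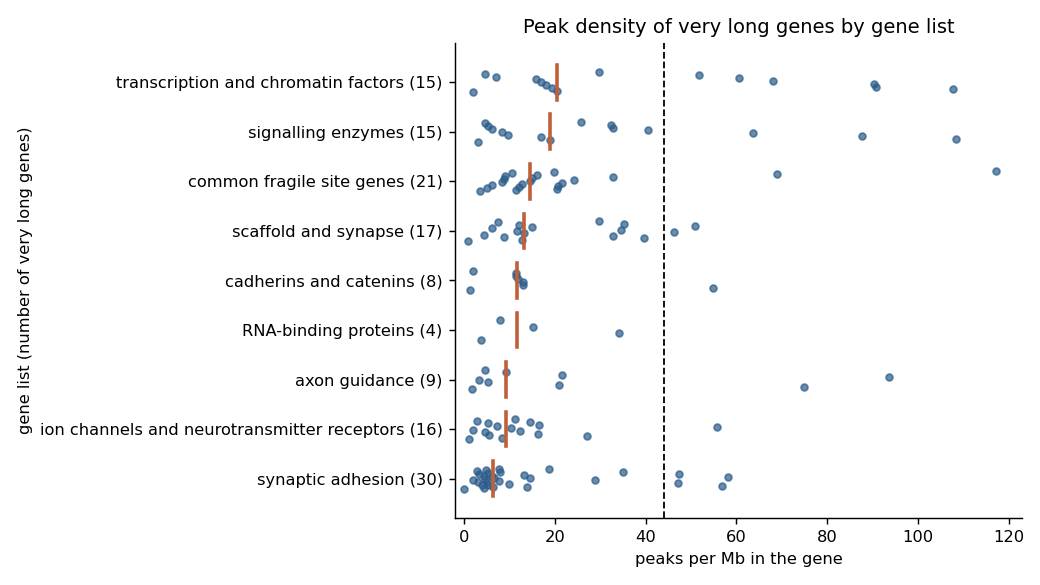
Peaks per Mb in the gene (horizontal axis) for very long genes grouped by the 9 gene lists (vertical axis, with the number of genes); points are genes, orange bars list medians and the dashed line the autosomal average of 44.1. Medians run from 6.38 in synaptic adhesion to 20.3 in transcription and chromatin factors, and each list spreads more widely than the medians do.

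Peaks in very long genes were slightly narrower by median than those of shorter genes or outside protein-coding genes, but not than those of their flanks. The median width was 574 bp (order-statistic 95% interval 551 to 598), against 663 bp (656 to 671) in shorter protein-coding genes and 621 bp (614 to 627) outside protein-coding genes. In the flanks of very long genes it was 582.5 bp (558 to 606), an interval that overlaps that of the inside. In genes of 1 Mb or more it was 524 bp (488 to 587). Peaks wider than 2 kb were 5.43% (4.71 to 6.22) of the set and 8.11% of all autosomal peaks, and peaks under 400 bp were 34.2% and 31.1%. In the flanks of very long genes the shares were 8.1% over 2 kb and 33.7% under 400 bp. The median fold enrichment, the authors' value for each peak, was 3.31 (3.29 to 3.34), against 3.23 (3.23 to 3.24) in shorter genes and 3.54 (3.53 to 3.55) outside protein-coding genes. In genes of 1 Mb or more it was 3.48. Dense genes had lower median folds than sparse ones, with a Spearman correlation of -0.471 over the 180 genes with 5 or more peaks, again a description over genes.

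Among the widest peaks were those of 7489 bp in Lrp1b, 7089 bp in the sarcoglycan gene Sgcd, 6474 bp in the contactin gene Cntn5 and 6006 bp in Mctp1. These 4 had folds of 5.55 or more. The highest folds were 11.2 in the cation channel gene Trpm3 on chr19:22464692-22465591, 10.9 in Fhit on chr14:10502662-10503304 and 10.8 in Rbms3 on chr9:117328427-117329093. Then came 10.7 in A830018L16Rik and 10.4 in Lsamp. These 5 peaks were 643 to 900 bp wide, and the 4 in genes with a listed strand lay 301.2 to 2019 kb from the start of the gene. The Rbms3 peak also overlapped the non-coding gene Gm39451 and the Lsamp peak the gene Gm52229.

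Densities of strong and weak peaks were only weakly related over genes. At least 1 strong peak was present in 168 genes, the median gene had 2 and the most was 12. The same count was not made for shorter genes. Strong density was alike in very long and shorter genes, at 2.68 and 2.77 per Mb, and a count per gene also depends on its span. A830018L16Rik on chr1:11413615-11975902 had 12 strong peaks among 28, or 21.3 per Mb, and Fhit had 11 among 32. Gm37013, Gm38666 and Gm38667, overlapping gene models that share most of their sequence on chromosome 18, had 10 each from the same stretch. The 22 genes with most peaks per Mb had 2.44 strong peaks per Mb (1.71 to 3.38) and the 108 with fewest had 2.09 (1.82 to 2.39). Weak peaks stood at 78.3 and 5.02 per Mb. These groups were ranked by all peaks, and 3150 of 3654 gene and peak pairs were weak. The contrast in weak peaks therefore follows from the ranking. Over the 216 genes the Spearman correlation between weak and strong density was 0.108.

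Within genes, long stretches held no peak. The gaps and windows given here are pooled over genes of unlike density, and clustering within a gene was not tested. The median gap between neighbouring peaks of a gene was 14 kb, against 7.68 kb in genes of 200 to 500 kb, and 350 of 3440 gaps were over 100 kb. Gaps under 1 kb were 1.10% of all, against 1.6% in genes of 200 to 500 kb. The longest stretch without a peak had a median of 253.8 kb per gene, or 29.1% of the span, and reached 500 kb in 26 genes. Nrxn3 had an empty stretch of 918.6 kb and Pcdh9 one of 870.2 kb. Of 1721 windows of 100 kb laid along the genes 644 held no peak, 37.4% against 16.2% in genes of 200 to 500 kb. Windows with 5 or more peaks numbered 213, 12.4% against 36.2% in genes of 200 to 500 kb. The fullest held 21.

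**Figure D4:**
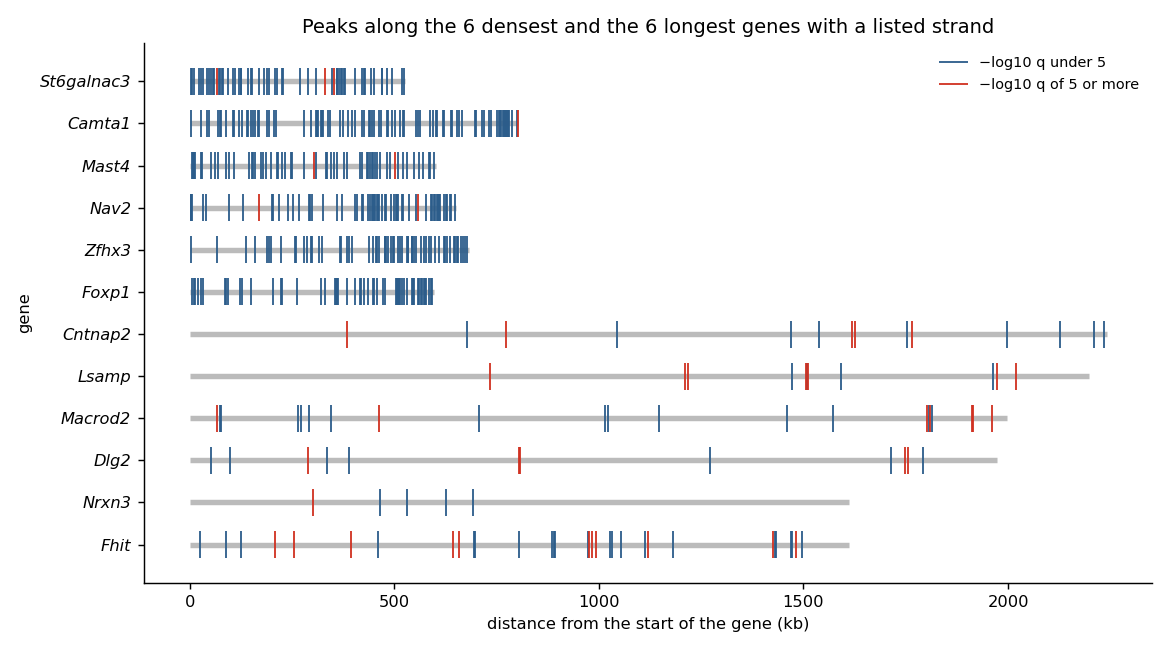
Peaks as ticks along 12 very long genes with a listed strand, by distance from the start of the gene in kb (horizontal axis); the upper 6 rows are the densest such genes and the lower 6 the longest, grey bars are gene spans, blue ticks weak peaks and red ticks strong peaks. Nrxn3 has 5 peaks, followed by an empty stretch of 918.6 kb, and ticks crowd towards the end in Zfhx3 and Foxp1.

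Along the gene, peaks were sparsest in the middle and became denser towards the end. The 169 genes with a listed strand gave 2722 gene and peak pairs. Of these 16.5% (15.2 to 18) lay in the closing 10% of the span and 10.5% (9.38 to 11.7) in the opening 10%. Schip1 and Iqschfp overlap, so a peak in both counts once for each, here and in the position counts that follow. The third, the fourth, the fifth and the sixth stretch of 10% held 7.57% to 8.49% each, and the closing stretch was at 2.08 times their mean. In genes of 200 to 500 kb it was at 1.42 times that mean and in genes of 100 to 200 kb at 1.27 times, with shares of 12.9% (12.2 to 13.7) and 12% (11.4 to 12.7). In genes of 1 Mb or more the closing 10% reached 20.3% (17.2 to 23.6) and the opening 10% held 7.18% (5.30 to 9.46).

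Of the 2722 gene and peak pairs 57.6% lay nearer the end than the start. More peaks near the end than near the start were found in 94 of 169 genes, fewer in 57 and equal numbers in 18. Among genes of 200 to 500 kb 246 of 538, or 45.7%, had more near the end, and the reverse was not counted. The closing 10% had more peaks than the opening 10% in 77 of the 169 genes, fewer in 53 and equal numbers in 39. Among the 538 genes of 200 to 500 kb it had more in 202 (37.5%) and fewer in 143 (26.6%). In both classes genes with more in the closing 10% outnumbered those with fewer. With each of the 141 genes of 5 or more peaks given equal weight, the mean share was 14.9% in the closing 10% and 10.6% in the opening 10%. Tenm3 had 7 peaks nearer its start and 54 nearer its end. Zfhx3 had 16 and 46, Nav2 18 and 43, Foxp1 16 and 38 and Camta1 37 and 50. The reverse held in Thsd4, with 24 and 10, in Ptprg, with 24 and 16, and in Nrxn3, with 5 and 0. These examples were chosen after their values were seen.

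Weak and strong peaks differed in position over the whole set. Of 2367 gene and peak pairs with a weak peak 17.5% (16 to 19.1) lay in the closing 10% and 58.7% (56.7 to 60.7) nearer the end. Of 355 pairs with a strong peak 9.86% (6.96 to 13.4) lay in the closing 10% and 50.1% (44.8 to 55.5) nearer the end. The strong peaks of the 2 classes of span were unlike. In genes of 500 kb to 1 Mb the closing 10% held 12 of 222 such pairs, 5.41% (2.82 to 9.25). In genes of 1 Mb or more it held 23 of 133, 17.3% (11.3 to 24.8).

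By distance, the first kb after the start held 1 peak in 169 genes, 5.92 per Mb (0.150 to 33.0). The next 4 kb held 18, or 26.6 per Mb (15.8 to 42.1), an interval that overlaps the former. From 10 to 25 kb the density was 29.2 (22.9 to 36.7), and from 100 to 200 kb it was 16.2 (14.3 to 18.2). Before the end of the gene it was 48.8 per Mb (33.6 to 68.6) from 1 to 5 kb and 37.1 (30.0 to 45.4) from 10 to 25 kb. From 100 to 200 kb before the end it was 25.4 (23.1 to 28.0). In genes of 200 to 500 kb density also rose before the end. It was 87.8 per Mb (75.8 to 101.3) from 1 to 5 kb and 42.6 (40.9 to 44.4) from 100 to 200 kb. Their first kb held 9.29 per Mb (3.02 to 21.7) and the next 4 kb 50.65 (41.6 to 61.1). A stretch of 10% is shorter in kb in these genes, so the shares above compare unlike distances. Measured from the nearer end in all 216 genes, the outer 10% at either side together held 27.2% (25.7 to 28.7) of 3654 gene and peak pairs, and the 20% in the middle held 16.9% (15.7 to 18.2).

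**Figure D5:**
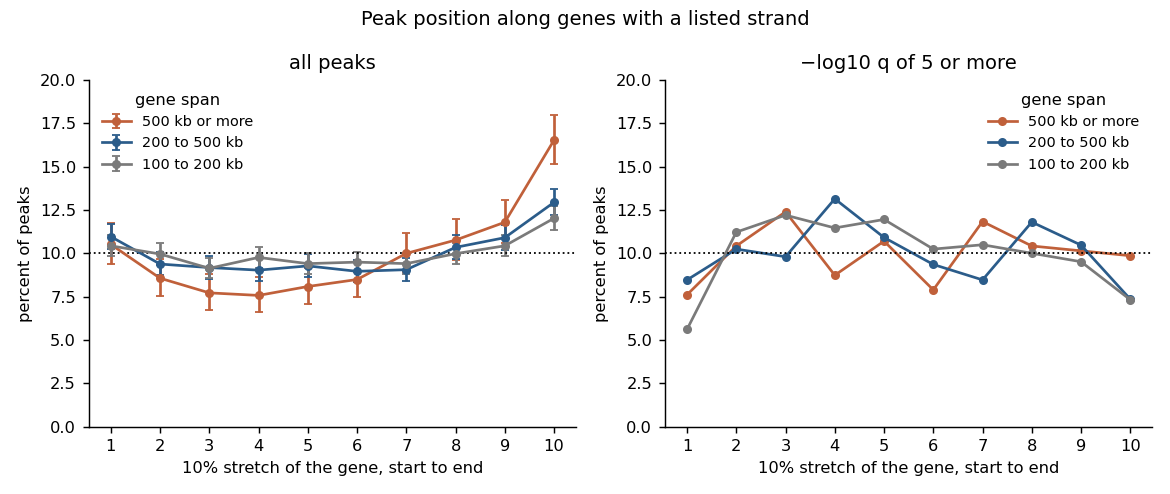
Percent of peaks (vertical axes) in each 10% stretch of the gene from start to end (horizontal axes) for genes with a listed strand in 3 classes of span; whiskers on the left are exact 95% intervals, the right panel shows strong peaks without whiskers, and the dotted line marks 10%, an even spread. Genes of 500 kb or more dip to 7.57% and rise to 16.5% in the closing stretch for all peaks, and end at 9.86% for strong peaks.

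Other genes that overlap the very long ones took a small part of the peaks. Such genes need not lie wholly inside. Sequence shared with another gene made up 5.21% of the span and held 303 peaks, 8.48% (7.58 to 9.44), at 32.3 per Mb (28.7 to 36.1). The rest of the span, in the long gene alone, had 19.2 per Mb (18.5 to 19.8). The parts shared with other protein-coding genes held 61 peaks at 36.1 per Mb (27.6 to 46.4). Those shared only with genes of other kinds held 242 at 31.4 (27.6 to 35.6).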

How the data were processed

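One peak list of the captured library was used. The submitters' processing notes name build mm10 and, in no stated role, deepTools 3.5.1, MACS2 2.1.0, bedtools 2.27.1, Bowtie2 2.5.0, SAMtools 1.16.1 and Trim Galore. Whether peaks were called against the uncaptured library is not given in the sources used here. In the deposited list the authors' values for a peak are a fold enrichment, which is a ratio, a −log10 p, a −log10 q and a score. The −log10 p and the score were not used here.

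Gene spans and types came from RefSeq tables of GRCm38.p6, the same build as mm10. Of 20665 autosomal protein-coding genes 105 were left out because they start within the first 3 Mb, an assembly gap. Strands and start sites came from the promoter table, which matched 169 of the 216 genes; 47 entered no oriented count. Python 3.11.15, pandas 2.3.3, NumPy 2.4.6 and SciPy 1.17.1 were used, and the functions were tested on simulated data. Intervals are exact Poisson for densities, exact conditional for ratios, Clopper-Pearson for shares and order-statistic for medians, all at 95%. Flanks reach 250 kb from each end without protein-coding genes.

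Named genes were the 10 densest, 10 sparsest and 10 longest, the 5 with most peaks, the genes of the 5 widest and 5 highest peaks, and the 2 densest and 2 sparsest of each list; others were named after their values were seen. Some genes that this rule names are not reported here. The genes and lists were chosen with earlier results of these data known. Alternatives were peaks at −log10 q of at least 3 or 5, merging within 1 kb and spans of 400 kb or 1 Mb. Others were sequence shared with other genes left out, any overlap of at least 1 bp, peaks wholly inside the gene and flanks of 100 kb. Leaving out the 10 or 20 densest genes was added after the values were seen.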

Additional observations from a re-analysis of the deposited data

How the results depend on the processing

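The peak threshold had the widest effect. At a −log10 q of at least 3 the density was 4.88 per Mb, the ratio to shorter genes 0.558, the ratio to the flanks 0.431, the median width 693 bp, the median fold 5.25, and the shares in the opening and closing 10% of the gene 8.46% and 11%. At a −log10 q of at least 5 these were 2.68 per Mb, 0.966, 0.415, 771 bp, 6.13, 7.61% and 9.86%, and the interval of the ratio to shorter genes (0.873 to 1.07) then included 1. With spans of 1 Mb or more they were 12.8 per Mb, 0.209, 0.603, 524 bp, 3.48, 7.18% and 20.3%, with a peak in 55 of 55 genes. With spans of 400 kb or more the density was 23.5 per Mb, the ratio to shorter genes 0.344 and the median fold 3.27, with a peak in 333 genes. Without sequence shared with other genes the density was 19.2 per Mb and the ratio to shorter genes 0.289. Without the 10 densest genes the density was 16.8 per Mb, the ratios 0.254 and 0.627, the median width 539 bp and the median fold 3.37; without the 20 densest the density was 14.8 per Mb and the ratios 0.223 and 0.568. Leaving out the densest genes lowers the density by the choice of genes, and a stricter threshold lowers it by removing peaks. The cause of the other shifts was not tested. Merging peaks, any overlap, peaks wholly inside the gene and flanks of 100 kb moved no value beyond its main interval, and no ratio crossed 1 under any alternative. No paired analysis was possible because the results come from 1 library and from no test across samples.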
